A study of Mus musculus with 9 samples.

Results

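Retinas from a light damage model with A74 were compared with retinas from the same model without A74, gene by gene. The comparison takes 6 of the 9 libraries of the series, 3 with A74 and 3 without, chosen by their labels, and covers the 17272 of 55414 genes that passed a filter on low counts. All libraries were made from retina of Balb/c mice, an albino strain, in 3 groups of 3: a control, a light damage model and the same model with A74. All carry the same date in their batch label. The labels give no identity, dose, route or vehicle of A74, no light intensity and no time of sampling. They give no age or sex of the mice, and do not say whether the other groups received a vehicle. The title of the study speaks of inhibiting P2RX7 and of cGAS-STING signalling, and its design text asks how A74 protects the retina. Libraries are called by group and the number in their title, as in light damage 1 or A74 1. The labels do not tie the libraries of a group to different animals. The p-values therefore reflect only the variation among these libraries, which may be partly or, with A74, wholly technical. Counts of Y-linked transcripts were 4249, 5710 and 0 in light damage 1 to 3 and 4752, 5832 and 0 in control 1 to 3. The libraries of each of these groups thus do not all come from 1 animal.

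Intense light kills rod photoreceptors in albino rodents, and the damaged rods are cleared by microglia and macrophages that move into the photoreceptor layer. Müller glia, the radial glia of the retina, react to signals such as endothelin 2 and LIF with gliosis, a shift towards structural, secreted and protective gene products. P2RX7 is an ATP-gated cation channel best known from microglia and macrophages, where it can trigger the inflammasome. The proteins cGAS and STING turn cytosolic DNA into a type I interferon response through the kinase TBK1 and the factor IRF3.

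Several features of library composition ran along this comparison. The non-coding RNA Xist, which coats the inactive X, had 18139, 17227 and 18172 counts in A74 1 to 3. In light damage 1 to 3 it had 4, 2 and 1 counts. Y-linked transcripts (Ddx3y, Kdm5d, Eif2s3y and Uty) summed to 4249 and 5710 counts in light damage 1 and 2 and to 0 in light damage 3 and in all A74 libraries. Xist was thus high in every A74 library and near 0 in every light damage library, and the state of Xist and A74 cannot be told apart. Levels are given as CPM, counts scaled to library size. A list of 8 genes taken to mark anterior eye tissue, written after the data were seen in earlier work, summed to 238 and 183 CPM in light damage 1 and 2 and 138 CPM in A74 1. It summed to 12.7, 15.9 and 13.7 CPM in light damage 3, A74 2 and A74 3. None of 15 tested crystallin and other lens genes was called by edgeR or DESeq2 (0 at an unadjusted p under 0.05 in edgeR). The 20 genes of the list summed to 851, 120 and 26.3 CPM in A74 1 to 3 and to 9.14, 99.3 and 9.58 CPM in light damage 1 to 3. Ribosomal protein genes took 0.973, 0.985 and 0.960% of counts in A74 and 1.09, 1.15 and 1.04% in light damage. The mean level of 30 rod genes relative to control (log2 of CPM plus 0.5) was -0.07, -0.11 and -0.12 in A74 and -0.81, -0.53 and -0.31 in light damage. Long non-coding RNA other than Xist took 1.66 to 1.73% against 1.58 to 1.62%. In bulk tissue fewer cells of a type and less RNA per cell cannot be told apart. Total counts ran from 15012495 to 18740434 in the 6 libraries. Defining markers of neutrophils and lymphocytes were at or near 0: the 12 neutrophil genes summed to 2.82 to 4.69 CPM in light damage and 1.39 to 2.69 CPM with A74, and the 16 lymphocyte genes to 2.16 to 3.95 and 2.30 to 3.65 CPM. Most of the neutrophil sum was the receptor gene Csf3r, with 4.15, 3.22 and 2.755 CPM in light damage and 1.08, 2.33 and 1.33 CPM with A74. It was the only neutrophil gene tested and was called lower (log2 fold change -1.08), a call lost without light damage 1. The 12 monocyte and border macrophage genes summed to 20.5 to 28.2 CPM in light damage and 18.9 to 19.7 CPM with A74, most of it Lyve1, with the monocyte genes Ly6c2 and Ccr2 at or near 0. Of the border macrophage genes, Mrc1 had 1.99, 2.08 and 0.197 CPM in light damage 1 to 3 and 0.128, 0 and 0.0664 CPM in A74 1 to 3, or 76 summed counts against 3, a ratio of 23.5 (95% exact counting interval 7.75 to 117, which covers counting error only). edgeR called it lower (adjusted p = 0.0411), a call lost with the Y term (adjusted p = 0.627) and without control 1, light damage 1, light damage 2 or any single A74 library (adjusted p = 0.0693 to 0.133). F13a1 had 1.56, 1.98 and 0.0656 CPM against 0.0638, 0.120 and 0 CPM, and Ms4a7 1.80, 1.04 and 0.394 CPM against 0.0638, 0.120 and 0 CPM, both too weak to be tested. These 3 genes, named after their values were seen, were highest in light damage 1 and 2. Genes of pigment epithelium and the visual cycle summed to 1197, 1098 and 1089 CPM in light damage 1 to 3 and 954, 915 and 898 CPM in A74 1 to 3, and melanocyte genes to 50.2, 39.0 and 27.9 CPM and 26.3, 20.9 and 19.6 CPM. Neither sum overlapped between the groups. The gap in the first sum lay mostly in Rlbp1 and Rdh10, and the cells these came from were not tested. Rlbp1 had 676.1, 614.5 and 597.1 CPM in light damage and 476, 473.2 and 450.6 CPM with A74. Rdh10 had 120.9, 112.2 and 100.1 CPM against 94.5, 86.37 and 87.52 CPM. Otx2, the largest member after Rlbp1, was higher with A74. Rpe65 had 16.24, 14.98 and 17.12 CPM against 14.92, 6.34 and 6.043 CPM. Of 16 tested pigment epithelium genes 3 were called lower and 1 higher (median log2 fold change -0.76), and 10 were lower without overlap, against 17.7% of all genes. The part of these differences in the results that follow was not tested. Values with a Y-linked term or within sets of libraries are given below, but they do not settle it. Xist was near 0 in all light damage libraries, so Xist and A74 stay joined in these fits. Light damage 3, without Y-linked counts, was also nearest to control in rod genes (-0.31). Y-linked state and this difference cannot be told apart among the light damage libraries.

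**Figure D1:**
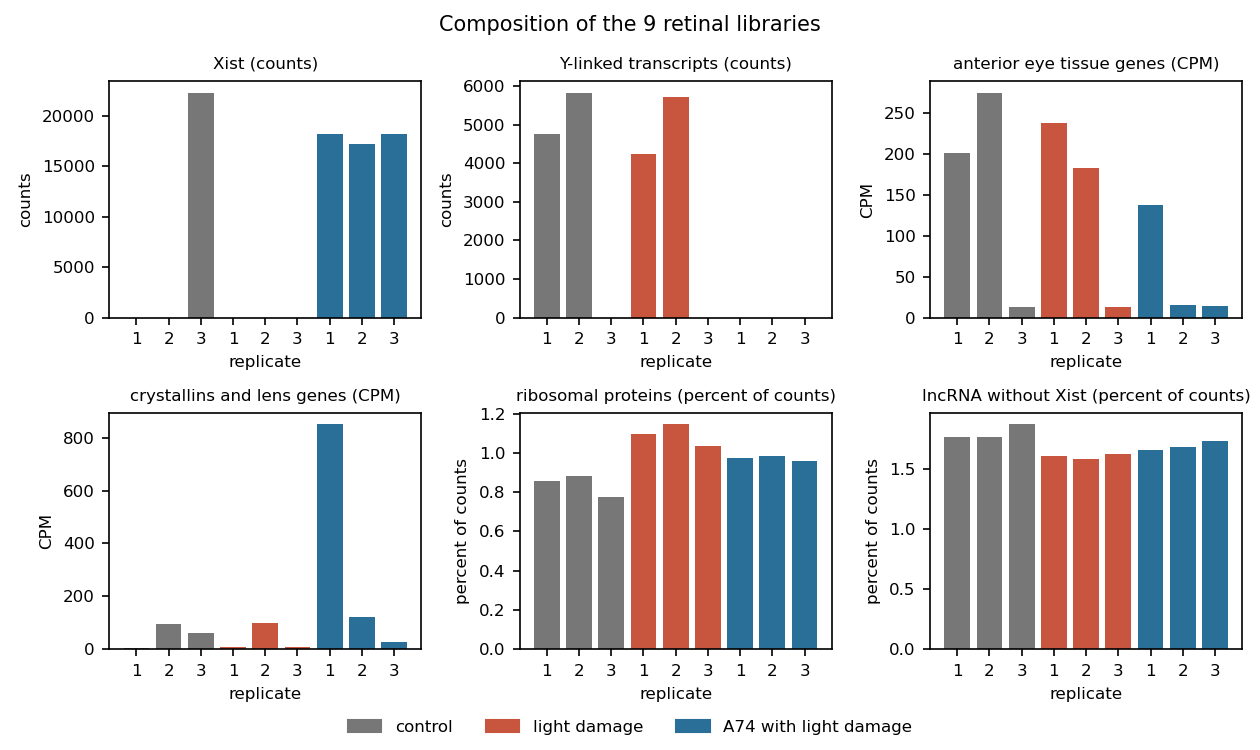
Bars show Xist counts, summed Y-linked counts, summed CPM of anterior eye and lens genes, and the percent of counts in ribosomal protein genes and in long non-coding RNA without Xist, for each of the 9 libraries by replicate number. Xist is high in all A74 libraries and in control 3 and absent from the light damage bars, Y-linked counts are seen in light damage 1 and 2 and control 1 and 2, and the 3 A74 bars for ribosomal proteins (0.960 to 0.985%) stand below the 3 light damage bars (1.04 to 1.15%).

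With A74 the genes of phagocytes, interferon response and gliosis were lower than in light damage, and genes of rod photoreceptors and their cilium were higher. Genes with an adjusted p under 0.05 in edgeR's quasi-likelihood test are named as called. There were 3153 such genes, 18.3% of those tested, of which 1566 (9.07%) were higher and 1587 (9.19%) lower with A74. The 2 directions differed in size: 420 genes (2.43%) fell at least 2-fold and 61 (0.353%) rose at least 2-fold. Most of the large falls were in weakly expressed genes, 263 of them in the 5035 genes with a mean level of 1 to 10 CPM and 4 in the 2313 genes at or above 100 CPM. Among the latter 455 genes rose and 254 fell, 2 and 4 of them at least 2-fold. The median log2 fold change over all genes was 0.00. Long non-coding RNAs rose in 93 of 1637 cases (5.68%) and fell in 23 (1.41%), whereas protein-coding genes rose in 1425 of 14251 cases (10%) and fell in 1534 (10.8%).

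Along the first principal component the light damage libraries were graded, and the A74 libraries were not. In the first principal component of the 9 libraries (42.7% of the variance) light damage 1 and 2 lay at 55.6 and 46.5 and light damage 3 at 12.95. The A74 libraries lay between -23.6 and -15.9, next to the control libraries between -29.5 and -10.7. The second component (18%) parted libraries within each group. It had A74 1 to 3 at -0.67, -19.4 and -20.7 and light damage 1 to 3 at 1.24, -0.56 and -19.0. Control 1 to 3 lay at 32.9, 32.0 and -5.86 there. A74 1 against light damage 1 and 2, the libraries with more anterior tissue RNA, gave 3196 called genes, and A74 2 and 3 against light damage 3 gave 677, in a fit where single libraries borrow their spread from the others. The change itself differed between these 2 sets of libraries for 196 of 17272 genes (interaction test in edgeR, adjusted p under 0.05). A74 against light damage 3 alone, the libraries without Y-linked counts, gave 336 called genes, 108 higher and 228 lower. With a term for Y-linked transcripts in the fit 745 genes were called, 337 higher and 408 lower. The total of 3153 also depended on single libraries, being 1717 without light damage 1, 1731 without light damage 2, 1815 without A74 2 and 1777 without A74 3. Each group of genes below is therefore given with its count under the Y term and in the libraries without Y-linked counts.

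**Figure D2:**
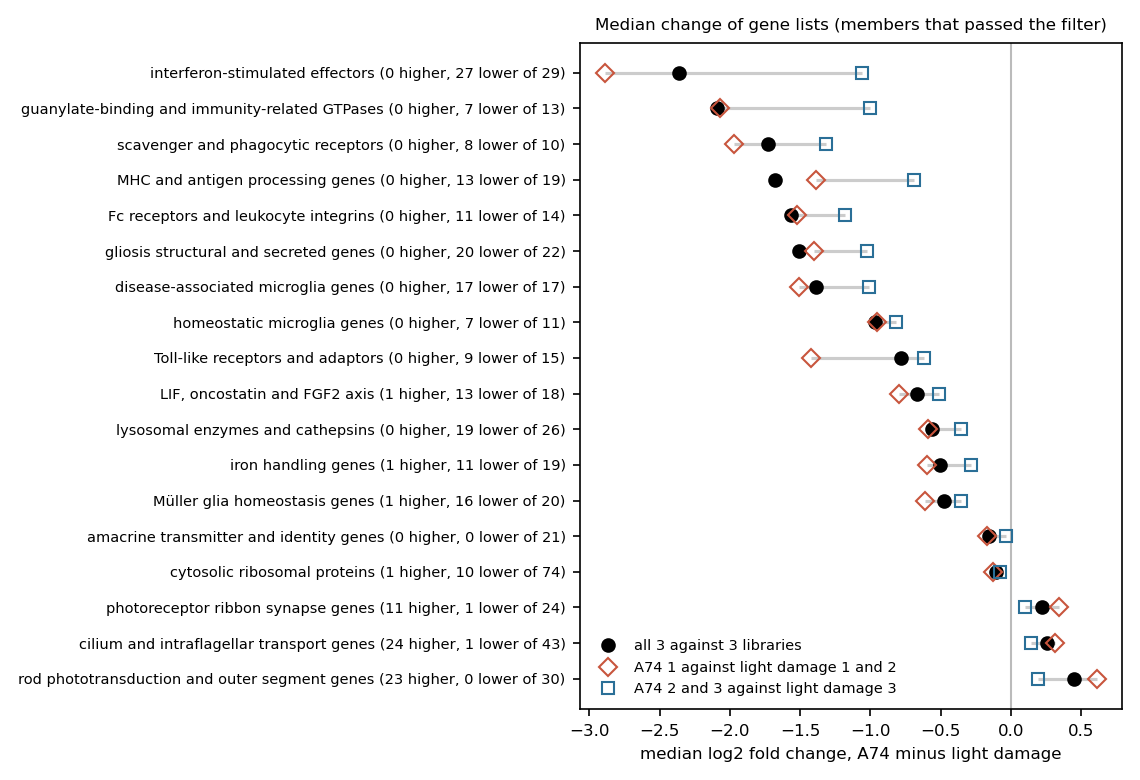
Points show the median log2 fold change of the tested members of 18 gene lists, for all 3 against 3 libraries (filled) and for the 2 sets of libraries with more (diamonds) and less (squares) anterior tissue RNA, with the number of members called in brackets. The medians of the immune and glial lists lie below 0 and those of the rod, cilium and ribbon synapse lists above 0 in both sets, and the interferon list has the widest gap between sets, -2.89 against -1.06.

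Phagocyte genes fell together. Of 17 tested genes of disease-associated microglia, the state that microglia take near dying neurons, all 17 fell (median log2 fold change -1.38, against 0.00 over all genes and 9.19% of all genes called lower). Here and in the lists that follow, weak genes passed the count filter through the group where they were high, so such counts describe the members and lend them no further support. The Y term left 14 of the 17 called, as did the libraries without Y-linked counts. Spp1, which encodes the secreted phosphoprotein osteopontin, had 262, 178 and 144 CPM in light damage 1 to 3 and 7.78, 11.01 and 7.97 CPM in A74 1 to 3 (log2 fold change -4.44, SE 0.30, adjusted p = 0.000377). Control retinas had 7.07, 7.06 and 9.24 CPM, so the A74 libraries lay at the level of retinas without light damage and below every light damage library. Clec7a, the beta-glucan receptor Dectin-1, had 12.5, 10.2 and 7.81 CPM without and 0.574, 0.538 and 0.863 CPM with A74 (log2 fold change -3.94, SE 0.29, adjusted p = 6.85e-07). Here too the groups did not overlap, and light damage 3 was the lowest of the light damage libraries. The border macrophage genes Mrc1 and Ms4a7 were lower in the same direction, at the levels given with the composition of the libraries, and their part in the phagocyte result was not tested.

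Receptors for uptake and for immune complexes were lower too. Among scavenger and phagocytic receptors 10 of 17 passed the filter and 8 fell (median -1.73, 6 with the Y term, 5 in the libraries without Y-linked counts), and among Fc receptors and leukocyte integrins 11 of 14 fell (median -1.57, 8 and 5). Cd68, a lysosomal membrane glycoprotein of phagocytes, had 36.7, 24.9 and 16.1 CPM in light damage and 2.17, 2.39 and 1.33 CPM with A74 (log2 fold change -3.71, SE 0.35, adjusted p = 0.000465). Msr1, the class A scavenger receptor, had 20.5, 15.97 and 8.85 CPM in light damage and 0.446, 0.419 and 0.0664 CPM with A74 (log2 fold change -5.55, SE 0.50, adjusted p = 0.000197). Stab1, a scavenger receptor of tissue macrophages, had 11.7, 7.75 and 6.95 CPM against 2.17, 2.03 and 2.32 CPM (log2 fold change -2.02, adjusted p = 7.59e-05). Axl, a receptor for apoptotic cells bridged by Gas6, had 42.7, 34.2 and 26.9 CPM against 13.5, 14.95 and 12.7 CPM (log2 fold change -1.33, adjusted p = 0.000197). Fcer1g and Tyrobp, the adaptor chains that carry the signals of Fc receptors and TREM2, fell by 2.74 (SE 0.36, adjusted p = 0.000197) and 2.49 (SE 0.36, adjusted p = 0.000864) on the log2 scale. In these 6 genes every A74 library was below every light damage library. Ms4a6d, a membrane protein of macrophages, and Adgre1, the macrophage marker F4/80, were among the genes with the smallest adjusted p of all lower genes (log2 fold change -5.37, adjusted p = 9.54e-06, and -3.57, adjusted p = 1.71e-06). Cd53, a leukocyte tetraspanin, was another (-2.86, adjusted p = 9.54e-06).

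Genes that mark resting microglia divided. Of 11 tested homeostatic genes 7 fell (median -0.97, 5 with the Y term, 2 in the libraries without Y-linked counts). Csf1r, the receptor for the growth factors that microglia need, had 34.2, 33.8 and 28.01 CPM in light damage and 13.7, 19.1 and 15.3 CPM with A74 (log2 fold change -0.99, SE 0.14, adjusted p = 0.000501). Cx3cr1, the fractalkine receptor, had 29.3, 22.00 and 16.00 CPM and 5.80, 9.75 and 6.71 CPM (log2 fold change -1.59, SE 0.25, adjusted p = 0.00367), again without overlap. P2ry12, the ADP receptor of resting microglia, had 8.60, 11.6 and 10.8 CPM against 5.55, 5.98 and 8.04 CPM and was not called (log2 fold change -0.67, adjusted p = 0.0879), although it was without control 2 and without control 3 (adjusted p = 0.0369 and 0.0181). Siglech, another microglial surface receptor, had 1.50, 1.61 and 1.71 CPM against 1.72, 2.15 and 1.93 CPM (log2 fold change 0.27, adjusted p = 0.505).

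Lysosomal and lipid genes were lower too, and in bulk retina the cells they came from were not tested. Apoe is also a member of the Müller glia list used below. Lists can share members, so their counts are not independent. Of 26 genes for cathepsins, other lysosomal enzymes and the proton pump 19 fell and none rose (median -0.56, 13 with the Y term, 11 in the libraries without Y-linked counts). Ctsd, the aspartic protease cathepsin D, had 472, 382 and 302 CPM in light damage and 143, 161 and 139 CPM with A74 (log2 fold change -1.38, SE 0.17, adjusted p = 0.0021). Ctss, a cathepsin of antigen-presenting cells, had 41.99, 35.6 and 28.9 CPM against 15.2, 19.9 and 17.8 CPM (log2 fold change -1.01, SE 0.13, adjusted p = 0.000158). Lamp2, a protein of the lysosomal membrane, fell by 0.63 (adjusted p = 0.000277), and Gusb, beta-glucuronidase, by 1.28 (adjusted p = 8.66e-05) on the log2 scale. Among 17 genes of cholesterol efflux and lipid-laden cells 9 fell (median -0.35, 4 with the Y term and 4 in the libraries without Y-linked counts), and Abcg1 and Mylip rose, 1 of them lost without any one library other than light damage 3 or A74 1. Apoe, the main lipid carrier of glia, had 858, 760.4 and 598 CPM without and 361, 417 and 387 CPM with A74 (log2 fold change -0.93, SE 0.13, adjusted p = 0.00146). Plin2, the coat protein of lipid droplets, had 25.9, 22.2 and 12.2 CPM and 5.48, 7.48 and 6.77 CPM (log2 fold change -1.61, SE 0.25, adjusted p = 0.00235). Both fell more in the set with light damage 1 and 2 than in the set with light damage 3 (log2 fold change -1.16 against -0.57 for Apoe, adjusted p = 0.0139, and -2.13 against -0.77 for Plin2, adjusted p = 0.0118, edgeR interaction test). Ch25h, which makes an oxysterol induced by interferon, had a summed 85 counts in light damage and 2 with A74, a ratio of 39.5 (95% exact counting interval 10.6 to 331, which covers counting error only).

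The interferon response had the lowest median of the immune and glial lists and its count of calls moved with the libraries used. Of 35 interferon-stimulated effectors 29 passed the filter, of which 27 fell (median -2.36). The Y term left 6 called and the libraries without Y-linked counts 8. The median was -2.89 in the set with light damage 1 and 2 and -1.06 in the set with light damage 3. Left out in turn, light damage 2 gave 13 called members, A74 1 gave 8, and A74 2 and A74 3 gave 6 each. Dhx58, a helicase that tunes RNA sensing by RIG-I-like receptors, had 6.56, 4.42 and 2.75 CPM in light damage and 1.34, 1.38 and 1.06 CPM with A74 (log2 fold change -1.86, SE 0.31, adjusted p = 0.000986). Oas1b, of the family of 2-5A synthetases that sense double-stranded RNA, had 12.3, 7.44 and 2.62 CPM against 0.574, 1.02 and 0.797 CPM (log2 fold change -3.22, SE 0.56, adjusted p = 0.00592). Ifi27l2a, a small interferon-induced membrane protein, had 3.37, 1.92 and 0.984 CPM against 0, 0.179 and 0.0664 CPM (log2 fold change -4.52, SE 0.66, adjusted p = 0.00037). All 3 kept their call in each of the 9 fits with 1 library left out and with the Y term, and in the libraries without Y-linked counts Dhx58 alone lost it (adjusted p = 0.164).

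The promoters of 3 effectors are shown because interferon-stimulated genes carry a short element that ISGF3 and IRF proteins bind. Its core was searched as GAAA, any 2 bases and GAAA again, with its reverse complement. The promoters printed are those of the effectors with the smallest adjusted p that hold this motif on either strand, in windows of 250 bases before to 50 after the start from RefSeq (GRCm38.p6, not the build of the counts). Each is given 5′ to 3′ on the strand of its gene, and capitals mark the motif or its reverse complement. Bst2 lies on the minus strand at chr8:71537423-71537722, Ddx58 on the minus strand at chr4:40239776-40240075 and Ifit3 on the plus strand at chr19:34583279-34583578.
Bst2: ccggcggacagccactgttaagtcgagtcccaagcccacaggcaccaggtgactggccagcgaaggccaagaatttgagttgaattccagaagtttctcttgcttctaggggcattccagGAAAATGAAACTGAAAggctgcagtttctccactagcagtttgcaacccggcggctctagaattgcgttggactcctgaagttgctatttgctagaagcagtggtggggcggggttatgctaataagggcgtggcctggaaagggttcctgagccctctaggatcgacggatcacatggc
Ddx58: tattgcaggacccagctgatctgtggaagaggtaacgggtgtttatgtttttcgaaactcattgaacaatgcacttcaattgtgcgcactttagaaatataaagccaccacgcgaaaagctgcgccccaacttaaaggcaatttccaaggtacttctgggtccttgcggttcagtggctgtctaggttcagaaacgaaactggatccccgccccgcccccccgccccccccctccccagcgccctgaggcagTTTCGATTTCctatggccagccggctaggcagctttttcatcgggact
Ifit3: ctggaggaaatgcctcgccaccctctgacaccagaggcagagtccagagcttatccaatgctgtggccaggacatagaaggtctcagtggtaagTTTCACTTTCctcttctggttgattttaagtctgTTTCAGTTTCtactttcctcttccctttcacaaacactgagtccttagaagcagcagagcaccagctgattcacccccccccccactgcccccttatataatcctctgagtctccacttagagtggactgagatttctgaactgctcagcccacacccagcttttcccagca
Bst2 encodes tetherin, which holds budding viruses at the cell surface, and had 34.7, 13.8 and 5.58 CPM in light damage and 1.72, 1.38 and 1.13 CPM with A74 (log2 fold change -3.67, SE 0.75, adjusted p = 0.0204). Ddx58 encodes the RNA sensor RIG-I and had 40.9, 28.3 and 11.4 CPM against 5.42, 6.64 and 5.58 CPM (log2 fold change -2.19, SE 0.45, adjusted p = 0.0207). Ifit3 encodes a tetratricopeptide protein of the antiviral response and had 62.5, 49.5 and 9.38 CPM against 5.04, 3.59 and 2.92 CPM (log2 fold change -3.39, SE 0.73, adjusted p = 0.0256). In each, light damage 1 was highest and light damage 3 lowest of the light damage libraries and the A74 libraries lay below all 3. The call was lost without any single A74 library for all 3 genes, without light damage 2 for Ddx58, and without light damage 1 or 2 for Ifit3. With the Y term none of the 3 was called (adjusted p = 0.151 for Bst2, 0.0874 for Ddx58 and 0.223 for Ifit3). In the libraries without Y-linked counts Bst2 was not called either (adjusted p = 0.297).

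The motif was found in 9 of 21 promoters (42.9%) of the tested effectors that have a promoter in the table, and in 9 of 10 (90.0%) of the guanylate-binding and immunity-related GTPases, against 1131 of 32851 (3.44%) of all promoters. TTCNNNGAA is the core of STAT sites, and its reverse complement is the same motif. It was found in 1 of 21 promoters (4.76%) of the LIF, oncostatin and FGF2 axis and 2 of 21 (9.52%) of the gliosis genes. Its share was 60.0% (6 of 10) in the GTPases, 19.0% (4 of 21) in the effectors and 5.88% (1 of 17) in antigen presentation genes. In rod and ribbon synapse genes it was 4.35% (1 of 23) and 7.41% (2 of 27), against 8.30% of all promoters. TAATCC is the core bound by CRX and OTX factors and was searched on either strand. It was found in 10 of 23 promoters (43.5%) of the rod genes and 6 of 27 (22.2%) of the ribbon synapse genes, against 7.06% of all. In the other lists searched its share ran from 4.76% in the LIF axis to 14.3% (3 of 21) in the effectors. A match describes the letters in the window and is no evidence of binding.

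Other arms of innate immunity were lower as well. Of 13 tested guanylate-binding and immunity-related GTPases, which attack vacuoles of intracellular microbes, 7 fell (median -2.09). This count was 1 with the Y term and 1 in the libraries without Y-linked counts. It was 3, 4 and 4 without control 1, 2 and 3, 4 and 3 without light damage 1 and 2, and 2 and 1 without A74 2 and 3. Gbp2 kept its call in all of these fits, with 24.6, 15.8 and 8.26 CPM in light damage and 3.76, 3.05 and 2.66 CPM with A74 (log2 fold change -2.36, SE 0.38, adjusted p = 0.005). Of 15 Toll-like receptors and adaptors 9 fell (median -0.78, 4 with the Y term, 2 in the libraries without Y-linked counts), led by Tlr7, an endosomal sensor of single-stranded RNA, with 6.14, 4.84 and 2.75 CPM against 0.255, 0.359 and 0.266 CPM (log2 fold change -3.93, SE 0.38, adjusted p = 1.39e-05). Of 7 tested inflammasome genes 3 fell, and none with the Y term. Casp1, the protease that matures IL-1 beta, had 2.47, 1.61 and 1.05 CPM against 0, 0.419 and 0.0664 CPM (log2 fold change -3.30, adjusted p = 0.00239). Pycard, its adaptor ASC, had 1.86, 1.72 and 1.11 CPM against 0.191, 0.419 and 0.398 CPM (log2 fold change -2.20, adjusted p = 0.00204). Nek7, which assembles the NLRP3 inflammasome, had 71.7, 75.6 and 81.00 CPM against 71.6, 71.3 and 75.3 CPM, with overlapping groups (log2 fold change -0.07, adjusted p = 0.49). Nlrp3 itself did not pass the filter.

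Antigen presentation genes fell in 13 of 19 cases (median -1.68, 8 with the Y term, 3 in the libraries without Y-linked counts). Tap1, a subunit of the transporter that loads peptides on class I molecules, had 12.9, 12.4 and 7.35 CPM in light damage and 2.61, 3.59 and 3.19 CPM with A74 (log2 fold change -1.80, SE 0.21, adjusted p = 8.30e-05). B2m, the light chain of class I molecules, had 152, 97.5 and 51.9 CPM and 18.9, 20.6 and 17.5 CPM (log2 fold change -2.40, SE 0.39, adjusted p = 0.01). In both genes light damage 3 was lowest of its group and still above every A74 library. The call of B2m was lost with the Y term (adjusted p = 0.0631), in the libraries without Y-linked counts (adjusted p = 0.0957) and in the set with less anterior tissue RNA (adjusted p = 0.213). Nlrc5, the transactivator of class I genes, fell by 2.62 on the log2 scale (SE 0.47, adjusted p = 0.00191). Chemokines and their receptors fell in 7 of 14 tested cases (median -0.60, 4 with the Y term, 1 in the libraries without Y-linked counts, and 11 without light damage 3). Cxcl10, the interferon-induced ligand of CXCR3, had 1.74, 4.21 and 0.656 CPM against 0.128, 0.120 and 0 CPM (log2 fold change -4.62, adjusted p = 0.00892). Ccl12, a ligand of CCR2, had a summed 59 counts in light damage and 1 with A74, a ratio of 54.8 (95% exact counting interval 9.46 to 2201, which covers counting error only). edgeR called it (adjusted p = 0.000859), and DESeq2 gave it no adjusted p.

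The cGAS-STING components that the title names were mostly not called. Of 11 tested members 2 rose and none fell (median 0.08), and without light damage 3 there were 3 lower members, and 1 without control 1 or without control 2. The list has 15 members, and Trex1, Ifnb1, Ifi204 and Zbp1 did not pass the filter. Ifi204 had 111, 81 and 6 counts in light damage 1 to 3 and 7, 3 and 1 in A74 1 to 3. Zbp1, also an interferon-stimulated effector, had 64, 69 and 8 against 6, 7 and 3 counts. Trex1 and Ifnb1 had 0 counts in every library. Cgas, the DNA sensor, had 0.963, 0.520 and 0.656 CPM in light damage and 0.255, 0.538 and 0.332 CPM with A74 (log2 fold change -0.89, SE 0.56, adjusted p = 0.292). Sting1, its effector, had 1.86, 1.14 and 0.984 CPM against 0.829, 0.658 and 1.20 CPM (log2 fold change -0.58, SE 0.39, adjusted p = 0.328). The groups overlapped in both genes, at levels below 2 CPM in every library. Tbk1 had 56.1, 57.3 and 58.6 CPM and 56.8, 59.4 and 65.3 CPM (log2 fold change 0.08, adjusted p = 0.465). Irf3 rose, from 51.98, 51.3 and 51.4 CPM to 64.3, 71.00 and 77.7 CPM (log2 fold change 0.46, SE 0.07, adjusted p = 0.000442), without overlap and also with the Y term (adjusted p = 0.00353). The other rise was in Slc19a1, a carrier of folates and cyclic dinucleotides (log2 fold change 0.40, adjusted p = 0.0109), which was not called without light damage 1, light damage 2 or A74 3 (adjusted p = 0.0527, 0.0609 and 0.0514). Of 18 interferon receptors, IRF and STAT factors 6 fell and Irf3 rose (median -0.47, 1 and 1 with the Y term, and 10 lower without light damage 3). Stat3, which carries signals of LIF and interleukin 6, had 115, 128 and 106 CPM against 73.7, 82.6 and 73.3 CPM (log2 fold change -0.60, SE 0.07, adjusted p = 9.37e-05). Irf8, a factor of microglia and macrophages, fell by 1.53 (adjusted p = 0.00265), and Ifnar2, a chain of the type I interferon receptor, by 0.97 (adjusted p = 0.00222) on the log2 scale.

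P2rx7 had 2.17, 1.61 and 1.05 CPM in light damage 1 to 3 and 0.510, 0.837 and 0.598 CPM in A74 1 to 3, or 36, 31 and 16 and 8, 14 and 9 counts. Every A74 library was below every light damage library (log2 fold change -1.30, SE 0.40, adjusted p = 0.0325). The call was lost when light damage 1 or 2 or any A74 library was left out (adjusted p = 0.166, 0.0905, 0.1, 0.059 and 0.104), with the Y term (0.369) and in DESeq2 (adjusted p = 0.0783). It was lost in the libraries without Y-linked counts and in the set with less anterior tissue RNA as well. P2ry6, a UDP receptor that triggers uptake by microglia, had 2.05, 2.29 and 1.25 CPM against 0.319, 0.479 and 0.332 CPM (log2 fold change -2.28, SE 0.41, adjusted p = 0.00153), called also with the Y term (adjusted p = 0.0367). Of the enzymes that break down extracellular nucleotides, Alpl, an alkaline phosphatase, rose from 136, 154 and 160.2 CPM to 186, 188 and 198 CPM (log2 fold change 0.34, SE 0.07, adjusted p = 0.00223), at the level of the control libraries (206, 191 and 185 CPM).

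NF-kB genes split by direction. Of 17 members 4 fell and 2 rose (median -0.04), with 2 and 0 under the Y term, 2 lower without A74 3 and 4 higher without light damage 3. Bcl3, a nuclear partner of NF-kB that STAT3 induces, had 6.14, 5.77 and 3.41 CPM in light damage and 0.255, 0.359 and 0.598 CPM with A74 (log2 fold change -3.65, SE 0.35, adjusted p = 1.36e-05). Relb, a subunit of the non-canonical arm, fell by 1.51 on the log2 scale (adjusted p = 0.0016). Tnfaip3, which encodes the NF-kB inhibitor A20, rose, from 191, 252 and 299 CPM to 443, 423 and 419 CPM (log2 fold change 0.79, SE 0.14, adjusted p = 0.00562), to the range of the control libraries (433, 425 and 379 CPM). Light damage 3 was the nearest to control in this gene as well, and the groups did not overlap.

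**Figure D3:**
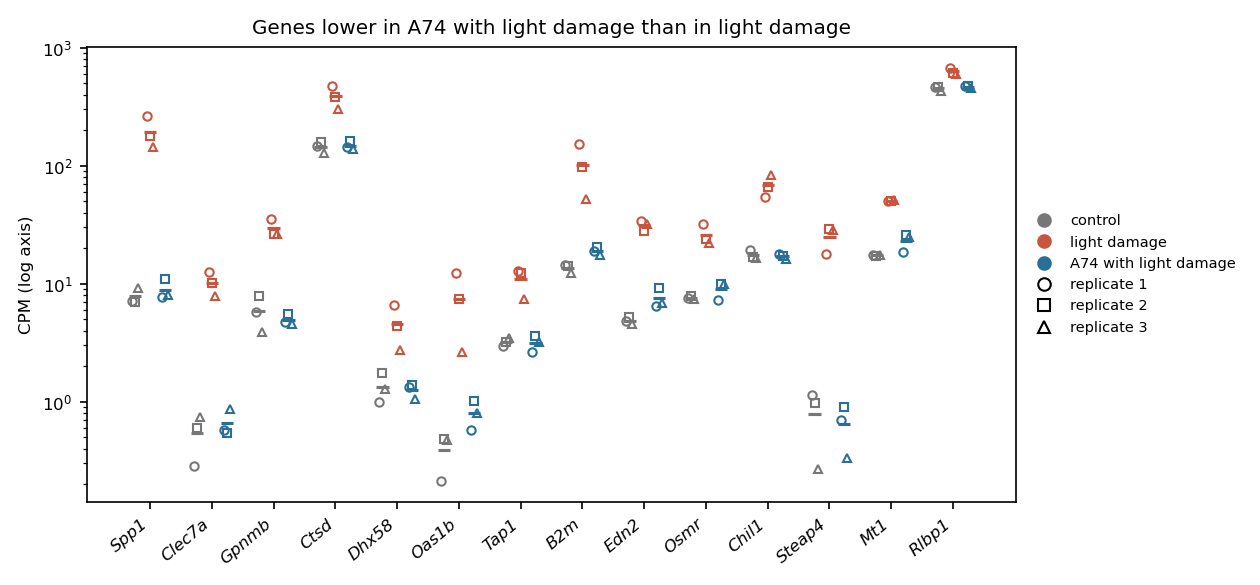
Points show CPM on a log axis for 14 genes lower with A74, 1 point per library with the replicate as symbol and the group mean as a line. For each gene the 3 A74 points lie below the 3 light damage points and within or near the control points, and light damage 3 lies near light damage 1 and 2 for Edn2, Steap4 and Mt1 but well below them for Oas1b.

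Gliosis genes fell almost without exception, and leaving out any single library kept their count within 1.5 times. Of 22 structural and secreted genes 20 fell (median -1.51), 13 with the Y term and 11 in the libraries without Y-linked counts. Chil1, a secreted lectin of reactive glia, had 54.4, 66.1 and 83.8 CPM in light damage and 17.7, 17.2 and 16.2 CPM with A74 (log2 fold change -2.00, SE 0.14, adjusted p = 1.57e-05). Lcn2, the siderophore-binding lipocalin 2, had 17.3, 42.6 and 64.1 CPM against 2.42, 1.08 and 2.26 CPM (log2 fold change -4.43, SE 0.61, adjusted p = 0.00545). In these 2 genes light damage 3 was the highest of its group, not the lowest. Cp, the ferroxidase ceruloplasmin, had 635, 609 and 463 CPM against 203, 172 and 166 CPM (log2 fold change -1.66, SE 0.16, adjusted p = 0.000808). S100a6, a calcium-binding protein, and Lgals1, galectin 1, fell by 2.68 (adjusted p = 9.37e-05) and 1.69 (adjusted p = 0.000275) on the log2 scale. Gfap, the intermediate filament of reactive glia, had 134, 103 and 53.6 CPM against 16.3, 18.8 and 16.9 CPM, and was called in the libraries without Y-linked counts (adjusted p = 0.00095) but not with the Y term (adjusted p = 0.0519).

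The axis of endothelin 2, LIF, oncostatin and FGF2, by which stressed photoreceptors and Müller glia exchange protective signals, fell in 13 of 18 tested cases and rose in 1 (median -0.67). With the Y term 8 members were lower and none higher, in the libraries without Y-linked counts 6 and none, and without A74 3 the lower count was 8. Edn2 had 33.6, 27.7 and 32.1 CPM in light damage and 6.44, 9.27 and 6.84 CPM with A74 (log2 fold change -2.05, SE 0.14, adjusted p = 4.21e-07). The mean in control was 4.86 CPM, nearer to the A74 libraries than light damage was, and A74 against control was not called (log2 fold change 0.63, adjusted p = 0.0597). Cebpd, a transcription factor of acute-phase genes, had 31.1, 28.7 and 19.5 CPM against 5.42, 6.40 and 4.12 CPM (log2 fold change -2.31, SE 0.19, adjusted p = 1.05e-05). Osmr, the oncostatin M receptor, had 32.2, 23.8 and 22.2 CPM against 7.21, 9.87 and 10.03 CPM (log2 fold change -1.53, SE 0.15, adjusted p = 2.30e-05). Socs3, the feedback inhibitor of the gp130 receptor, had 11.6, 10.7 and 6.56 CPM against 2.87, 4.13 and 2.06 CPM (log2 fold change -1.66, SE 0.24, adjusted p = 0.000484). Fgf2, a survival factor for photoreceptors, stood at 83.6, 86.8 and 85.1 CPM in light damage, nearly equal in the 3 libraries, and at 26.1, 45.6 and 42.2 CPM with A74 (log2 fold change -1.16, SE 0.18, adjusted p = 0.0045), where A74 1 was the lowest. Lifr, the LIF receptor, was the member that rose (log2 fold change 0.28, SE 0.07, adjusted p = 0.00743).

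Genes of a list for Müller glia homeostasis were also mostly lower with A74 than in light damage. The median log2 fold change of this list against control was 0.49 in light damage and -0.02 with A74. Of 20 members 16 fell (median -0.48, 12 with the Y term, 9 in the libraries without Y-linked counts). The lipid transporter gene Abca8a rose, a call lost without any one library other than light damage 3 or A74 1. Car14, a membrane carbonic anhydrase, had 117, 112 and 103 CPM in light damage and 68.9, 68.9 and 65.7 CPM with A74 (log2 fold change -0.70, SE 0.06, adjusted p = 9.54e-06), against 71.1, 78.7 and 71.3 CPM in control. Aqp4, the water channel of glial endfeet, had 273, 235 and 184 CPM against 149, 141 and 138 CPM (log2 fold change -0.69, SE 0.12, adjusted p = 0.00434). Kcnj10, an inward rectifier potassium channel, had 178, 141 and 136 CPM against 108, 109 and 104 CPM (log2 fold change -0.50, SE 0.08, adjusted p = 0.00105). Pdpn, a membrane mucoprotein, fell by 1.21 (adjusted p = 0.000237), and Crym, a thyroid hormone binding protein, by 2.06 (adjusted p = 0.00237) on the log2 scale. The A74 libraries lay near the control level in this list and in the gliosis list. Mean levels relative to control (log2 of CPM plus 0.5) were -0.01, 0.04 and -0.04 for Müller genes and 0.12, 0.04 and 0.02 for gliosis genes in A74 1 to 3.

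Iron handling genes fell too, and their mean level was less graded over the light damage libraries than that of interferon genes. Their median change still differed between sets, -0.60 in the set with light damage 1 and 2 and -0.28 in the set with light damage 3. Of 19 iron handling genes 11 fell (median -0.50), with 7 under the Y term, 6 in the libraries without Y-linked counts, and 7 without light damage 1 or without A74 2. Tfrc, the transferrin receptor, rose, a call lost without light damage 1, light damage 2 or A74 1. The mean level of the list was 0.80, 0.88 and 0.81 above control in light damage 1 to 3 (log2 of CPM plus 0.5), whereas that of the interferon effectors was 3.09, 2.57 and 1.01. Steap4, a metalloreductase induced by inflammation, had 17.9, 28.97 and 28.3 CPM in light damage and 0.701, 0.897 and 0.332 CPM with A74 (log2 fold change -5.25, SE 0.38, adjusted p = 8.30e-05). Hmox1, heme oxygenase 1, had 9.75, 7.38 and 7.15 CPM against 2.36, 1.97 and 3.52 CPM (log2 fold change -1.63, SE 0.23, adjusted p = 0.000277). Mt1, a metal-binding metallothionein, had 50.2, 50.6 and 51.1 CPM, nearly equal in the light damage libraries, against 18.6, 26.1 and 24.8 CPM (log2 fold change -1.13, SE 0.10, adjusted p = 8.12e-06). Control libraries had 17.5, 17.1 and 17.4 CPM of Mt1, below each A74 library. Glutathione, thioredoxin and NRF2 target genes fell in 12 of 22 cases (median -0.28, 5 with the Y term, 2 in the libraries without Y-linked counts, 7 without light damage 1 or 2). Prdx6, a peroxiredoxin of glia, had 318, 281 and 232 CPM against 157, 154 and 144 CPM (log2 fold change -0.87, SE 0.12, adjusted p = 0.00134). Gpx1, a glutathione peroxidase, fell by 0.56 (SE 0.08, adjusted p = 0.000275).

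**Figure D4:**
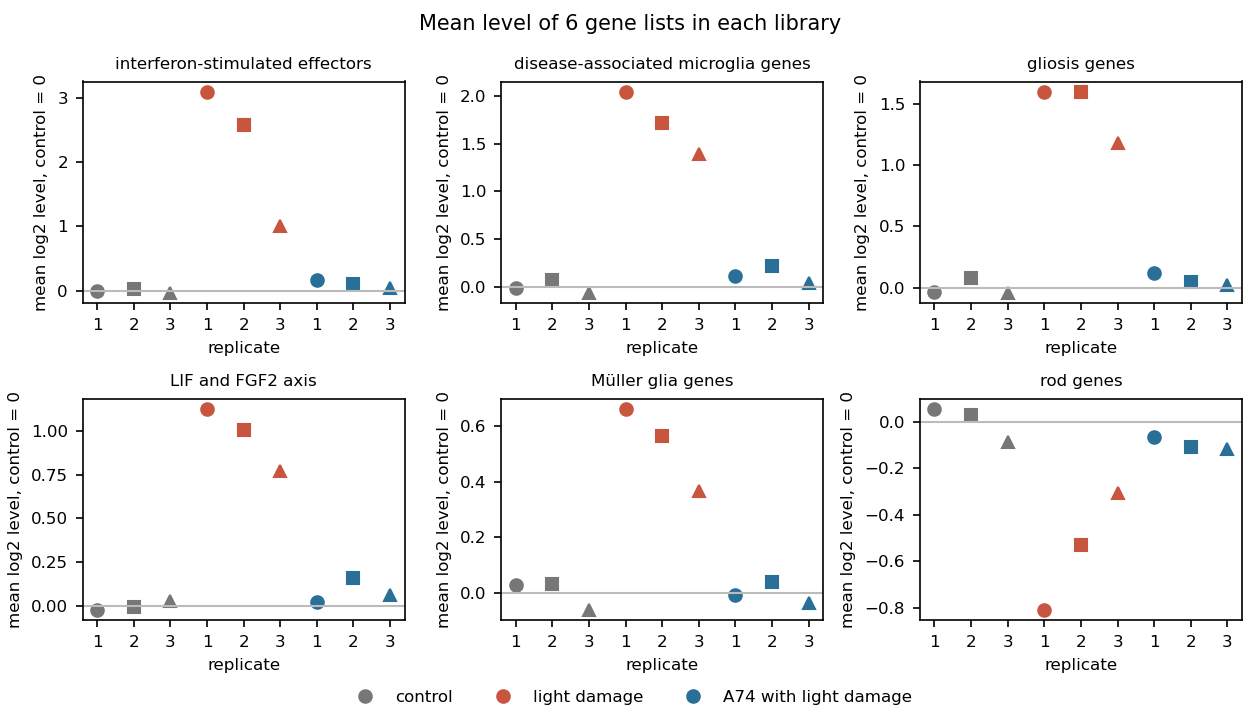
Points show the mean log2 level (CPM plus 0.5) of 6 gene lists in each of the 9 libraries relative to the control mean, with 1 panel per list and its own vertical axis. The interferon list stands at 3.09, 2.57 and 1.01 in light damage 1 to 3, the LIF and FGF2 list at 1.13, 1.00 and 0.77, and the A74 libraries lie between -0.12 and 0.22 in all 6 panels.

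Proliferation, matrix and vessel genes gave smaller sets of calls. Of 21 tested cell cycle genes 7 fell (median -0.41, 4 with the Y term, 3 in the libraries without Y-linked counts). Mki67, which encodes the proliferation antigen Ki-67, had 4.63, 3.80 and 2.62 CPM in light damage and 0.255, 0 and 0 CPM with A74 (log2 fold change -5.33, SE 0.59, adjusted p = 7.54e-05). Top2a, the topoisomerase of dividing cells, had a summed 143 counts in light damage and 1 with A74, a ratio of 133 (95% exact counting interval 23.5 to 5282, which covers counting error only), and edgeR called it (adjusted p = 7.54e-05). Plasminogen activators, metalloproteinases and their inhibitors fell in 7 of 18 tested cases (median -0.43, 5 with the Y term, 4 in the libraries without Y-linked counts). Plau, the urokinase that activates plasmin, shared the smallest adjusted p of the comparison with Edn2. It had 12.99, 13.5 and 8.79 CPM in light damage and 0.765, 0.718 and 0.598 CPM with A74 (log2 fold change -4.07, SE 0.28, adjusted p = 4.21e-07). Timp1, a metalloproteinase inhibitor, had 2.89, 3.59 and 3.87 CPM against 0.191, 0.179 and 0.531 CPM (log2 fold change -3.51, SE 0.43, adjusted p = 0.000107). Of 24 endothelial, VEGF and adhesion genes 8 fell (median -0.24, 5 with the Y term, 1 in the libraries without Y-linked counts). Vcam1, an adhesion molecule for leukocytes, had 47.6, 41.1 and 27.1 CPM against 10.5, 11.3 and 9.23 CPM (log2 fold change -1.90, SE 0.18, adjusted p = 9.37e-05). Kdr, the main VEGF receptor, had 451, 328 and 366 CPM against 243, 236 and 214 CPM (log2 fold change -0.73, SE 0.10, adjusted p = 0.000621). Of 29 collagens and laminins 3 fell, a share near the 9.19% of all genes called lower. Without light damage 3 there were 9, and their median changed sign between the sets with more and less anterior tissue RNA, -0.39 against 0.09. Of 20 death receptor, caspase and necroptosis genes 4 fell (2 with the Y term, 1 in the libraries without Y-linked counts). In the same list 1 gene rose, a call lost without A74 3. Tnfrsf1a, a TNF receptor, had 21.6, 19.3 and 14.1 CPM against 5.36, 6.94 and 7.04 CPM (log2 fold change -1.51, SE 0.20, adjusted p = 0.000465).

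Rod photoreceptor genes were higher with A74, by less than 2-fold. Of 30 genes of rod phototransduction, outer segment and rod fate 23 rose and none fell (median 0.44, against 9.07% of all genes called higher). With the Y term 4 were called and in the libraries without Y-linked counts 2. Left out in turn, light damage 2 gave 12 called members, A74 1 and A74 2 gave 13 each and A74 3 gave 12. The median was 0.61 against light damage 1 and 2 and 0.19 against light damage 3. Rdh8, the retinol dehydrogenase of outer segments, had 56.9, 66.4 and 67.1 CPM in light damage and 104, 92.3 and 90.05 CPM with A74 (log2 fold change 0.59, SE 0.08, adjusted p = 0.000148), against 110.0, 97.2 and 101 CPM in control. Rdh8 kept its call with the Y term (adjusted p = 0.0035) and in the libraries without Y-linked counts (adjusted p = 0.0205). Rp1l1, an axonemal protein of outer segments, had 309, 372 and 446 CPM against 583, 613 and 567 CPM (log2 fold change 0.65, SE 0.11, adjusted p = 0.00201). In Rdh8 and Rp1l1 light damage 1 was lowest and light damage 3 highest of its group, and every A74 library stood above all 3. Nr2e3, which represses cone genes in rods, had 413, 460.2 and 564 CPM against 619.6, 739.8 and 791 CPM (log2 fold change 0.58, SE 0.11, adjusted p = 0.00373). Its A74 libraries lay above the control libraries (589, 582 and 568 CPM), but A74 against control was not called (adjusted p = 0.202).

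Genes of the photoreceptor cilium and of the ribbon synapse rose with those of the rod outer segment. Of 43 cilium and intraflagellar transport genes 24 rose (median 0.25), 6 with the Y term and none in the libraries without Y-linked counts (edgeR, 15 at an unadjusted p under 0.05). Rp2 fell, a call lost without any one library other than light damage 3. Crocc, which encodes the rootletin of the ciliary rootlet, had the smallest adjusted p of the higher genes the naming rule gave, with 200.2, 215 and 225 CPM in light damage and 312, 299.8 and 303 CPM with A74 (log2 fold change 0.52, SE 0.06, adjusted p = 7.41e-05). Crocc is not a member of that list, and it was called in the libraries without Y-linked counts too (adjusted p = 0.00276). Bbs5, a subunit of the BBSome that sorts ciliary membrane proteins, had 69.2, 82.5 and 89.00 CPM against 109, 107 and 114 CPM (log2 fold change 0.45, SE 0.07, adjusted p = 0.000934). Arl13b, a small GTPase of the ciliary membrane, rose by 0.49 (SE 0.08, adjusted p = 0.00152) on the log2 scale. Of 24 ribbon synapse genes 11 rose and 1 fell (median 0.22), with 3 and 0 under the Y term and 2 and 0 in the libraries without Y-linked counts, and 7 rose without light damage 2 or without any single A74 library. Unc13b, a priming factor of synaptic vesicles, had 299, 292 and 309.8 CPM against 416, 373 and 394 CPM (log2 fold change 0.39, SE 0.06, adjusted p = 0.000589), and its A74 libraries stayed below the control libraries (476, 466 and 479.7 CPM). Cacna1f, the calcium channel of photoreceptor terminals, had 311, 330.4 and 371 CPM against 439, 454 and 494 CPM (log2 fold change 0.45, SE 0.07, adjusted p = 0.000775). Dag1, the dystroglycan gene, was the synapse gene that fell (log2 fold change -0.34, adjusted p = 0.00402), while its partner Dmd, dystrophin, rose (log2 fold change 0.42, adjusted p = 0.000856).

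A separate group of raised genes stood above control as well as above light damage. Nr4a3, an orphan nuclear receptor of the immediate-early class, had 0.902, 1.14 and 1.57 CPM in light damage, 6.38, 11.5 and 10.7 CPM with A74 and 2.19, 0.965 and 0.944 CPM in control. Its log2 fold change was 2.98 against light damage (SE 0.32, adjusted p = 9.37e-05), the largest the naming rule gave, and 2.81 against control (adjusted p = 0.00116). Atf4, the effector of the integrated stress response, had 201, 227 and 244 CPM in light damage, 312, 345 and 343 CPM with A74 and 214, 217 and 191 CPM in control (log2 fold change 0.57, SE 0.07, adjusted p = 0.000152 against light damage, and 0.69, adjusted p = 0.000205 against control). Both comparisons share the A74 libraries. For Nr4a3 and Atf4 every A74 library was above all 6 other libraries. Per1, a clock gene that light and activity induce, had 67.6, 71.98 and 77.2 CPM in light damage, 95.6, 112 and 112 CPM with A74 and 85.8, 78.3 and 77.1 CPM in control (log2 fold change 0.56, adjusted p = 0.000152, and 0.41, adjusted p = 0.0156). Hspa1b, an inducible HSP70, had 21.7, 23.04 and 22.3 CPM in light damage, 36.7, 30.9 and 31.7 CPM with A74 and 20.7, 22.9 and 19.8 CPM in control (log2 fold change 0.57, adjusted p = 0.0007, and 0.65, adjusted p = 0.00268). Lpcat1, an acyltransferase that makes the saturated phosphatidylcholine of photoreceptors, had 177, 201 and 219.8 CPM in light damage, 286, 303 and 299 CPM with A74 and 231, 238 and 225 CPM in control (log2 fold change 0.57, adjusted p = 9.37e-05, and 0.36, adjusted p = 0.0212). Against light damage, Nr4a3, Atf4, Per1, Hspa1b and Lpcat1 were called with the Y term and in the libraries without Y-linked counts (adjusted p = 0.0091, 0.00593, 0.0152, 0.027 and 0.00592 in the latter). Of all genes tested against control, 102 (0.591%) were higher and 52 (0.301%) lower with A74.

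Genes of the lists to which these belong were called in both directions. The mean level of 9 AP-1 factors was 0.92, 0.92 and 0.73 above control in light damage 1 to 3 and 0.77, 0.80 and 0.71 with A74 (log2 of CPM plus 0.5), and that of the EGR, NR4A and activity genes 0.53, 0.68 and 0.60 and 0.77, 0.73 and 0.72. In both lists all 6 libraries were above every control library. Of 19 EGR, NR4A and activity genes 3 rose and 4 fell (median -0.02), and Egr3, a factor of the same class as Nr4a3, had 1.08, 0.832 and 1.25 CPM in light damage and 1.66, 4.49 and 2.79 CPM with A74 (log2 fold change 1.51, adjusted p = 0.00671, not called without A74 2, adjusted p = 0.0686). The count of lower members was 1 without light damage 1 or A74 3 and 2 without light damage 2 or A74 2. Dusp6, a phosphatase that limits ERK signalling, was one of those that fell, from 25.8, 22.4 and 23.9 CPM to 16.3, 15.01 and 15.01 CPM (log2 fold change -0.64, SE 0.11, adjusted p = 0.00119). Of 22 genes of the integrated stress and unfolded protein responses 4 rose and 1 fell (median 0.05), with 1 and 1 under the Y term. The lower count was 4 without light damage 3 and 2 without A74 1. The higher count was 1 without A74 2 and 2 without light damage 1, light damage 2, A74 1 or A74 3. The one that fell was Slc7a11, a cystine transporter and target of ATF4, with 37.1, 36.1 and 24.1 CPM against 20.2, 15.8 and 13.8 CPM (log2 fold change -0.97, SE 0.18, adjusted p = 0.00538), a direction opposite to that of Atf4. Heat shock and DNAJ genes rose in 3 of 21 cases, or 6 without light damage 3, and fell in 2, or 1 without light damage 1 and none without light damage 2 or A74 3. Dnajb1, an HSP40 cochaperone, had 61.6, 61.8 and 67.2 CPM against 73.1, 79.1 and 81.8 CPM (log2 fold change 0.30, SE 0.07, adjusted p = 0.00572). Between the 2 groups AP-1 factors split, with Jun and Atf3 called higher and Junb lower, and none of the 3 calls held without A74 2 or without A74 3. Jun had 44.8, 44.3 and 37.6 CPM against 45.98, 59.2 and 56.5 CPM (log2 fold change 0.35, adjusted p = 0.0155, and 0.0881 without A74 2 and 0.0674 without A74 3).

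**Figure D5:**
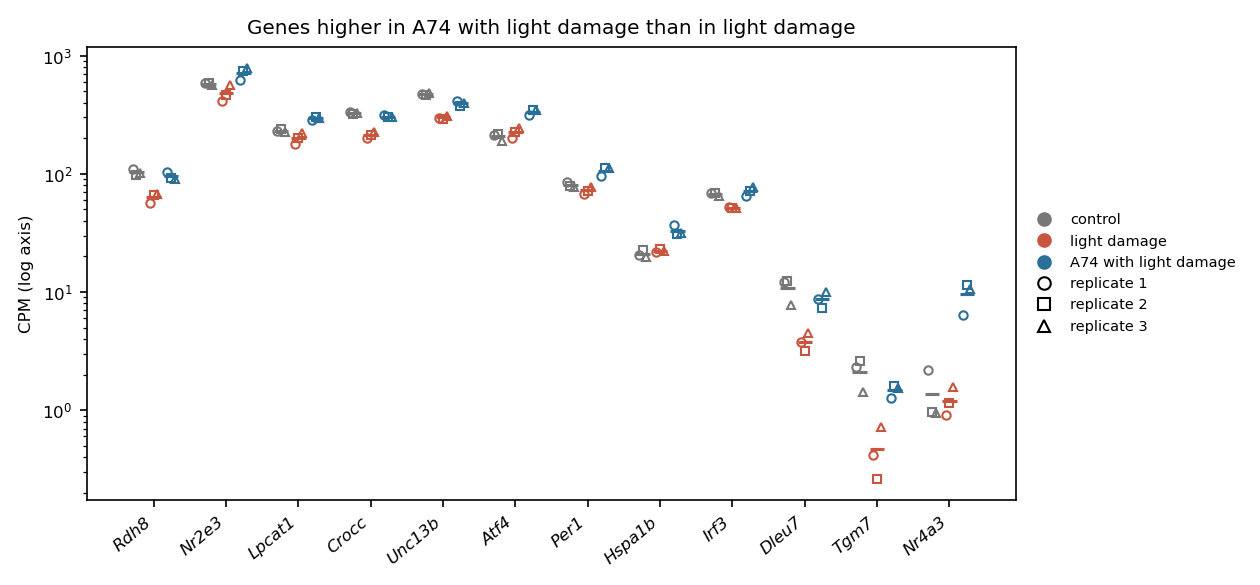
Points show CPM on a log axis for 12 genes higher with A74, 1 point per library with the replicate as symbol and the group mean as a line. Crocc and Unc13b with A74 lie below the control points, whereas Atf4 (312 to 345 CPM with A74, 191 to 217 CPM in control) and Nr4a3 (6.38 to 11.5 CPM with A74, 0.944 to 2.19 CPM in control) lie above both other groups.

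Among the other raised genes were several of low level. Dleu7, a gene of unclear function in the retina, had 3.79, 3.17 and 4.46 CPM in light damage and 8.74, 7.36 and 9.96 CPM with A74 (log2 fold change 1.19, SE 0.20, adjusted p = 0.000864), against 12.2, 12.3 and 7.82 CPM in control. Pabpn1l, a poly(A)-binding protein gene, had 2.23, 2.24 and 2.43 CPM against 4.91, 5.44 and 4.98 CPM (log2 fold change 1.15, SE 0.20, adjusted p = 0.00127). H4c3, a histone H4 gene, had 2.05, 2.18 and 1.90 CPM against 5.04, 5.204 and 3.72 CPM (log2 fold change 1.18, SE 0.24, adjusted p = 0.00335), and its reads may be shared with near-identical histone genes. In all 3 genes the groups did not overlap. Tube1, an epsilon-tubulin of centrioles, had 22.9, 27.4 and 30.2 CPM against 43.2, 48.7 and 48.5 CPM (log2 fold change 0.81, SE 0.10, adjusted p = 9.37e-05). Traf3ip3, a TRAF3-interacting membrane protein, had 16.1, 17.3 and 21.3 CPM against 31.1, 29.4 and 33.9 CPM (log2 fold change 0.79, adjusted p = 0.000129). Igsf9, an adhesion molecule of the immunoglobulin family, had 129.8, 143 and 158 CPM against 199, 215 and 239 CPM (log2 fold change 0.60, adjusted p = 0.000114). Tube1, Traf3ip3 and Igsf9 kept their calls with the Y term and in the libraries without Y-linked counts.

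Genes known to escape X inactivation were also among those raised. Of 9 genes comprising Xist and genes known to escape X inactivation 5 rose and none fell (median 0.57), 9 without control 3 and 3 without light damage 1. Kdm5c, a histone demethylase gene that escapes, had 112, 119.7 and 135 CPM in light damage and 251, 232 and 216 CPM with A74 (log2 fold change 0.93, SE 0.13, adjusted p = 0.00249), and 168, 164 and 227 CPM in control 1 to 3, where control 3 is the library high in Xist. Ddx3x, an RNA helicase that escapes, had 395, 413 and 469 CPM against 647, 584 and 585 CPM (log2 fold change 0.51, SE 0.11, adjusted p = 0.008, not called without light damage 1, adjusted p = 0.0755). Light damage 3, which has neither high Xist nor Y-linked counts, had Kdm5c, Ddx3x and Eif2s3x at levels between light damage 1 and 2 and the A74 libraries. The rest of the list did not share this. Kdm6a had 54.5, 53.1 and 55.55 CPM in light damage 1 to 3 and 111, 106 and 104 CPM in A74 1 to 3. In Jpx, Ftx and 5530601H04Rik light damage 3 lay within the range of light damage 1 and 2, and in Pbdc1 below both. Xist itself was not called (adjusted p = 0.0867), with control libraries both high and low, and was called in a fit of the light damage and A74 groups alone (adjusted p = 3.07e-14).

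Lists of inner retinal neurons and housekeeping genes had medians within 0.2 of 0 on the log2 scale. None of 21 amacrine genes was called by edgeR or DESeq2, 6 had an unadjusted p under 0.05 in edgeR, and 6 were called lower without light damage 3. Of 30 glutamate, GABA and glycine receptor genes 3 fell, also near the 9.19% of all genes, with 7 without light damage 3 and none without light damage 1, light damage 2, A74 2 or A74 3. Of 18 genes of the mGluR6 cascade of ON bipolar cells 7 fell (median -0.14, 1 with the Y term, 3 without light damage 2 and 4 without A74 2), and Gnb5 and Rgs9bp rose, 1 of them lost without light damage 2 or any single A74 library. Isl1, a homeodomain factor of bipolar and ganglion cells, had 157, 142 and 131 CPM in light damage and 102, 107 and 106 CPM with A74 (log2 fold change -0.46, SE 0.07, adjusted p = 0.000304). Gng13, a G protein subunit of the cascade, had 42.8, 44.5 and 38.6 CPM against 33.03, 31.3 and 31.4 CPM (log2 fold change -0.39, SE 0.08, adjusted p = 0.00375). Of 15 cone genes Arr3 and Thrb rose and Gnb3 fell (median 0.07), and without light damage 1, light damage 2 or any single A74 library neither rise was called, and 1 was without any single control library. Of 74 cytosolic ribosomal protein genes 10 fell (median -0.11), against 9.19% of all genes called lower. In this list 1 gene rose, a call lost without light damage 1. Without overlap 35 of the 74 were lower and 1 higher, against 17.7% and 17.5% of all genes. Likewise 9 of 65 nuclear-encoded respiratory chain genes fell (median -0.11), with 30 lower and 2 higher without overlap. None of 13 mitochondrially encoded genes was called by edgeR or DESeq2 (0 at an unadjusted p under 0.05 in edgeR). The lower ribosomal count was 6 without control 1, 2 without light damage 2, 4 without A74 1 and 5 without A74 2 or A74 3. The respiratory chain count was 2 without light damage 2, 17 without light damage 3, 4 without A74 1 or A74 3 and 5 without A74 2. In both lists none was called lower with the Y term. Slc16a1, the lactate carrier MCT1, rose from 194, 205 and 266 CPM to 316, 303 and 321 CPM (log2 fold change 0.50, SE 0.09, adjusted p = 0.00373). Arntl, the clock factor BMAL1, had 71.9, 81.1 and 90.9 CPM against 100.4, 104 and 119 CPM (log2 fold change 0.41, SE 0.08, adjusted p = 0.00337). Both rose without overlap between the groups, with the Y term at adjusted p = 0.0393 for Slc16a1 and 0.0563 for Arntl.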

How the data were processed

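Total RNA of mouse retina was sequenced in 9 libraries, 3 per group. The authors deposited 1 table of whole-number read counts per gene for all 9 libraries, and the submitters' processing notes name Bowtie2, RSEM 1.3.1, DESeq2 1.4.5 and the build GRCm39 without their roles. How the counts became whole numbers is not given in the sources used here, nor whether strand was used in counting. Libraries were grouped by their labels. The members and gene lists used here were chosen with earlier results of these data known, and the list of anterior eye tissue genes was written from them.

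Counts were filtered with filterByExpr (minimum count 10), which left 17272 of 55414 genes, scaled by TMM and fitted over all 9 libraries with edgeR 4.0.16 (robust quasi-likelihood, R 4.3.3, limma 3.58.1). Adjusted p-values are Benjamini-Hochberg over all tested genes, with a threshold of 0.05, and are edgeR's unless another tool is named. A standard error was derived from the F statistic. CPM values use the TMM-scaled library sizes. Total counts ran from 14787972 to 18740434 per library. No libraries were alike within sampling noise.

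Named genes were, first, the called genes without overlap between groups and with a mean of at least 1 CPM that had the 15 largest changes or the 10 smallest adjusted p in each direction. Up to 4 members of each list by adjusted p and P2rx7, Gfap, Xist, Cgas and Sting1 were added, and the text names fewer, since some genes are not reported here. Bst2, Ddx58 and Ifit3 were taken by their promoter motif and adjusted p. Outside these rules, Aqp4, B2m, Cd68, Crym, Ctsd, Fgf2, Lamp2, Lcn2, Lifr, Nek7, Nlrc5, P2ry12, Siglech, Socs3, Tbk1, Abcg1, Mylip, Abca8a, Tfrc, Rp2, Gnb5, Rgs9bp, Dbp, Ly6c2 and Ccr2 were chosen after their values were seen. Alternatives were DESeq2 1.42.0 and its size factors, no filter, the 2 groups alone, a replicate block, a 2-fold minimum, terms for Y-linked and anterior tissue transcripts, leaving out each library, and fits within sets of libraries, 3 of them added after the data were seen. In tests on simulated counts the fit was checked before use.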

Additional observations from a re-analysis of the deposited data

Results flagged for a closer look

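In 9 of the 118 named genes the change with A74 differed between 2 sets of libraries: A74 1 against light damage 1 and 2, which hold more anterior tissue RNA, and A74 2 and 3 against light damage 3. The difference was tested with an interaction term in edgeR and adjusted over all genes, and the log2 fold changes are given in that order. Interferon genes differed most: Ifit3 had -3.47 and -1.52 (adjusted p = 0.000992) and Ddx58 had -2.67 and -0.90 (adjusted p = 0.00626). Among glial and Müller genes, Fgf2 had -1.71 and -0.95 (adjusted p = 0.00366), Pdpn -1.51 and -0.84 (adjusted p = 0.00626) and Crym -2.24 and -1.51 (adjusted p = 0.0097). The lipid genes Apoe (-1.16 and -0.57, adjusted p = 0.0139) and Plin2 (-2.13 and -0.77, adjusted p = 0.0118) fell more in the set with light damage 1 and 2. Slc16a1, the lactate carrier, had 0.66 and 0.23 (adjusted p = 0.034). Jun, an AP-1 factor, differed in the other way, with 0.05 in the set with light damage 1 and 2 and 0.62 in the set with light damage 3 (adjusted p = 0.0335). The sets also differ in Y-linked counts and in the level of rod RNA among light damage libraries, which cannot be told apart here.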

How the results depend on the processing

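The count of 3153 called genes (1566 higher, 1587 lower) stayed within 1.5 times with DESeq2's size factors (3134), no count filter (3591), DESeq2 (2863), the 2 groups alone (2514), a term for anterior tissue (2644), the set with more anterior tissue RNA (3196) and without light damage 3 and A74 1 together (4518). With a 2-fold minimum 481 genes were called, 61 higher and 420 lower. A Y-linked term gave 745, 337 and 408, and both terms gave 810, 393 and 417. The libraries without Y-linked counts gave 336, 108 and 228, and the set with less anterior tissue RNA 677, 321 and 356. Leaving out 1 library at a time gave 1717 to 4514 called genes, 775 to 2320 higher and 933 to 2194 lower, and the cause was not tested. The lone libraries in fits within sets were assumed to vary like the others. Of the 118 named genes 1, Sting1, changed sign, to 0.061 with the Y-linked term and 0.11 with both terms. The Y-linked term moved 22 named genes from called to not called, and the libraries without Y-linked counts 37. With replicate number as a block 3362 genes were called, 1660 higher and 1702 lower, and all 118 named genes kept their side of the threshold. Deviations of same-numbered libraries correlated at -0.09 to 0.31, with 6 of 9 pairs over 0.1, among them all 3 pairs of replicate 3. As not every pair was over 0.1, the numbers were not taken to pair the libraries. With 3 libraries a group, genes below a few CPM allow only large changes to be called.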

Other observations

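Targets of p53, which respond to DNA damage, moved little. Of 16 tested targets 4 fell, Cdkn1a, Phlda3, Eda2r and Ei24 (median -0.13), and none with the Y-linked term. This count was 2 without control 2, 1 without light damage 1, A74 1 or A74 2, and 0 without light damage 2 or A74 3. Of 20 clock and output genes 4 rose, Arntl, Per1, Nfil3 and Bhlhe41, and Dbp fell (median 0.06). The higher count was 2 without light damage 1, light damage 2 or A74 3, and Dbp was called only with all libraries or without light damage 3. Of 18 ganglion cell genes 4 fell, Isl1, Gap43, Uchl1 and Ebf1 (median -0.18), and 1 was called with the Y-linked term. The ganglion cell count was 1 without light damage 1, light damage 2 or A74 1 and 2 without A74 2 or A74 3.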
